A study of Mus musculus with 2 samples.

Results

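B cells of the liver tumour region were taken as barcodes with at least 3 unique molecular identifiers (UMIs, each standing for 1 captured mRNA molecule) of Cd79a, Cd79b and Ms4a1 together and at least 1 of Cd79a. They also had no UMI of Cd3d, Cd3e, Cd3g, Siglech, C1qa, C1qb, C1qc or Csf1r and at most 3 of Lyz2. Only barcodes with at least 300 detected genes and at most 25% mitochondrial UMIs were considered. This rule found 570 B cells among 6835 such barcodes of a control library and 341 among 9470 of an inhibitor library, 911 of 16305 in all. The mice were C57BL/6 animals fed CD-HFD for 15 months and listed as 17 months old, and the treated animals received a compound that blocks FABP5, a cytosolic carrier of fatty acids, starting in month 13. The labelled tumour region had been dissociated with collagenase, passed through an Annexin V kit to enrich live cells, and run on a 10x Genomics 3′ platform. The treatment of the control mice, the number of mice behind each library or the loaded fraction of the kit is not given in the sources used here. There was 1 library per group, so no difference between the libraries has a replicate check, and every interval below is a 95% interval that covers counting error only.

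B cells recognise antigen through a membrane immunoglobulin that signals through the Cd79a and Cd79b chains, present captured antigen on MHC class II and receive help from T cells through costimulatory ligands. Naive follicular B cells carry IgM and IgD, while activated cells may switch to IgG, IgA or IgE and mature into plasma cells that secrete antibody. Of these classes, the J chain joins units of IgA and IgM. In the liver they lie among portal infiltrates, and IgA-secreting cells are a known feature of chronically inflamed fatty liver.

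The 3 markers the rule did not use were checked first. Ebf1, a transcription factor that commits cells to the B lineage, stood at 1113 counts per 1000000 UMIs (CPM) in control B cells and 1342 CPM in inhibitor B cells, against 0.3 CPM in the gated T cells of each library. Fcmr, the IgM Fc receptor, stood at 648 and 717 CPM, and Bank1, a scaffold of antigen receptor signalling, at 347 and 490 CPM. An Ebf1 UMI was found in 94.0% of control and 94.4% of inhibitor members, so the label was borne out by genes outside the rule. The rule itself left few borderline barcodes. The summed UMIs of the 3 selecting genes had a median of 20 in control members and 18 in inhibitor members. Only 2 control and 1 inhibitor member stood at the limit of 3 UMIs, and 4 control and 0 inhibitor barcodes stood just below it at 2. Another 45 control and 9 inhibitor barcodes passed the gates but failed the gene or mitochondrial limit. Members held 2766989 UMIs in the control and 1292346 in the inhibitor library, with medians of 3194.5 and 2705 UMIs per cell. The mitochondrial share had medians of 7.47% and 7.51%. The libraries shared 29 barcodes, of which 1 belonged to a control member and none to a cell that was a member in both.

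B cells made up a smaller share of the inhibitor library. They were 8.34% of control barcodes within the limits (exact Clopper-Pearson interval 7.69% to 9.02%) and 3.60% of inhibitor barcodes (3.23% to 3.996%), a 2.32-fold lower share. The denominator also differed: gated monocytes numbered 258 in the control and 2832 in the inhibitor library. Without those monocytes the shares were 8.67% and 5.14%, 1.69-fold lower. Set against gated T cells, 2172 and 2366 in number, B cells were 1.82-fold fewer per T cell in the inhibitor library. The negative gates took 19.7% of otherwise positive control barcodes and 22.5% of inhibitor barcodes, with C1q removing 7.61% and 3.64% and Csf1r 2.82% and 7.95%. Without any negative gate the shares were 10.4% and 4.65%. Whether mice, dissection or the live-cell enrichment differed between the libraries cannot be told apart from the treatment.

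**Figure D1:**
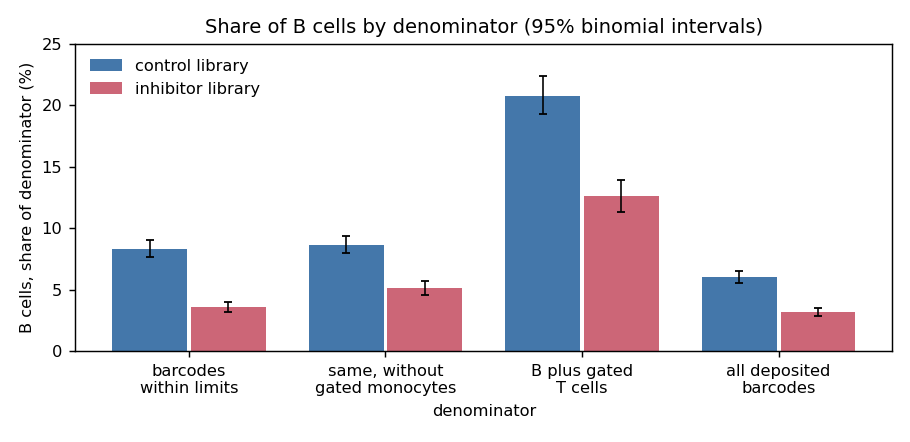
Share of B cells (y axis, percent) in the control and inhibitor library under 4 denominators (x axis); bars give the share and error bars the exact 95% binomial interval. The inhibitor bar is lower under every denominator shown, from 20.8% against 12.6% of B plus T cells to 6.004% against 3.202% of deposited barcodes.

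Members were not uniform. Clustering them without immunoglobulin genes gave 6 sub-clusters, whose leading genes describe them and are no test. Sub-cluster 0 (243 control and 225 inhibitor cells) was follicular or naive B cell-like: 11 of 13 follicular markers, such as Fcer2a (CD23) and Cxcr5, were raised there, and Satb1 and Ccr7 stood among its top genes beside the activation genes Nr4a1, Egr3 and Klf4. Sub-cluster 1 (131 and 62 cells) was led by Id3, an inhibitor of E-protein transcription factors, and Icosl, the ligand of the costimulatory receptor ICOS. All 5 tested erythroid genes, such as Hbb-bs, were raised there too, and it was left unnamed. Sub-cluster 2 (87 and 36 cells) held larger cells with a median of 5845 UMIs, led by the proliferation gene Mki67, the memory-associated genes Nt5e, Zbtb32 and Cd80, and Zcwpw1. Its markers were split over the B1, age-associated, germinal centre and memory lists, so it was also left unnamed. Sub-cluster 4 (27 and 14 cells) was plasma cell-like, with 11 of 12 plasma cell markers raised and a median of 22048 UMIs per cell. Sub-cluster 3 (80 and 1 cells) was led by hepatocyte genes such as Fabp1, Apoc4 and Mup20, with a UMI in 12.3%, 12.3% and 43.2% of its cells. Sub-cluster 5 (2 and 3 cells) was led by the NK cell genes Xcl1, Gzma and Nkg7. Top genes were ranked against the other members and without immunoglobulin genes, so markers shared by all B cells could not lead. Of the 80 control cells of sub-cluster 3, 73 had UMIs of both Ighm and Ighd. So did all 2 control and 3 inhibitor cells of sub-cluster 5. Sizes were not compared between libraries, since Id3 and the hepatocyte genes that define sub-clusters also differed between the libraries as a whole. Without sub-clusters 3 and 5 the shares of B cells were 7.14% and 3.56%.

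A few members with very high Jchain held a large part of the RNA. Members with at least 10 UMIs of Jchain, which encodes the chain that links IgA and IgM units, are called secreting cells below. They numbered 26 in the control (4.56%) and 13 in the inhibitor library (3.81%). They held 25.6% and 19.1% of all member UMIs, and immunoglobulin transcripts made up 61.8% and 51.0% of their own RNA. Their median depth was 26978 UMIs in the control and 20792 in the inhibitor library. Jchain itself had a median of 1208 and 618 UMIs per cell. In the control, 13 of the 26 had Igha as the heavy chain constant gene with most UMIs, 11 had Ighm, 1 had Ighg2b and 1 had Ighg2c. In the inhibitor library, 9 of the 13 had Igha and 4 had Ighm. Igha was the commonest gene among them in both libraries, and no IgG cell was found among the 13. IgA cells were larger, with median depths of 31047 and 21522 UMIs against 16879 and 13496 for IgM cells. Xbp1, the transcription factor of the secretory program, had a UMI in 25 of 26 and 12 of 13 of these cells, and Sdc1 (CD138) in 20 and 9. Ccr10, a homing receptor of IgA plasma cells, had one in 13 and 9, and Tnfrsf17, the receptor BCMA that supports plasma cell survival, in 22 and 11. Of the 26 control cells, 2 also had at least 10 UMIs of Ms4a1, which mature plasma cells lose, and Mki67 UMIs. These 2 had 13 and 26 UMIs of Ighm, their leading heavy chain gene, and no Sdc1 or Tnfrsf17 UMI, and lay in sub-cluster 2. The name secreting cells is not borne out for them, though they are counted among the 26 and left out with the others below. A further 25 control and 7 inhibitor barcodes with at least 10 Jchain UMIs lay within the limits but did not pass the rule, which asks for Cd79a and for the absence of other lineages, so plasma cells are only partly covered.

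Over all members, 1 of 12 tested plasma cell genes was at least 1.5-fold higher and 3 were lower in the inhibitor library. Of all 5842 tested genes, those with at least 50 UMIs, 6.74% were higher and 4.45% lower. Jchain stood at 12653 and 6581 CPM (log2 ratio -0.94, interval -0.98 to -0.91), and no cell held over 14.8% of its UMIs in either library. Sdc1 stood at 31.8 and 19.3 CPM and Txndc5, a disulfide isomerase of the secretory pathway, at 483 and 303 CPM. Derl3, which helps clear misfolded proteins, was higher at 44.5 and 85.9 CPM, with 52.3% of the inhibitor UMIs in 1 cell. Within the secreting cells themselves 4 of 11 were higher, Derl3, Irf4, Tnfrsf17 and Mzb1, and 0 lower. This lay near the share over all 1028 genes tested in these cells, of which 35.6% were higher and 8.95% lower. Jchain there had a log2 ratio of -0.52 and Xbp1 one of 0.15.

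Single V genes recurred among these secreting cells, such as Ighv1-55 in 5 control cells. Most pairs of a heavy and a light V gene were found in 1 cell only. A V gene was called where it had at least 3 UMIs and at least 2 times the UMIs of the next V gene. A heavy and a light V gene could both be called in 18 control and 8 inhibitor cells, and these held 15 and 7 distinct pairs. In the control, Ighv1-55 with Igkv3-2 was found in 3 cells and Ighv1-64 with Iglv1 in 2. Some calls rested on few UMIs, such as 4 of Ighv1-55 and 4 of Igkv3-2 in 1 of those 3 cells. Iglv1 was called in 4 control cells, of which 3 had more kappa than lambda constant UMIs, including 1 of the Ighv1-64 pair. Those 3 calls go against the cells' own light chain and are counted among the 18 cells and 15 pairs. In the inhibitor library, Ighv1-12 with Igkv6-15 was found in 2 cells, both IgM. Igkv3-2 was the leading light V gene in 7 control cells and in none of the inhibitor cells. V gene pairs without junction sequence describe gene usage and do not establish clones.

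Class-switched cells were a small share of members. Among cells with at least 3 heavy chain constant UMIs, switched genes exceeded Ighm and Ighd together in 29 of 560 control cells (5.18%, 3.50% to 7.35%) and 10 of 332 inhibitor cells (3.01%, 1.45% to 5.47%). These intervals overlap. Leaving out the cells with at least 10 Jchain UMIs gave 14 of 534 (2.62%, 1.44% to 4.36%) and 1 of 319 (0.313%, 0.00794% to 1.73%). Of the 14 control cells, 8 had Ighg2b, 3 had Igha, 2 had Ighg1 and 1 had Ighg2c with most UMIs. In sub-cluster 2, 13 of 86 cells with at least 3 heavy chain constant UMIs were switched in the control and 2 of 33 in the inhibitor library. In sub-cluster 0, 1 of 239 and 0 of 220 such cells were switched. A count of 0 still allows a share of up to 1.66% there by the exact interval. An Ighd UMI, the mark of naive cells, was found in 76.0% of control and 74.2% of inhibitor members, and in 34.5% and 38.9% of sub-cluster 2. Free RNA bears on these calls: 11.2% of control and 2.32% of inhibitor T cells carried an Igha UMI and 41.7% and 24.8% an Igkc UMI, while Ighd was found in only 0.184% and 0.296%. Its part in the switched share was not tested.

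**Figure D2:**
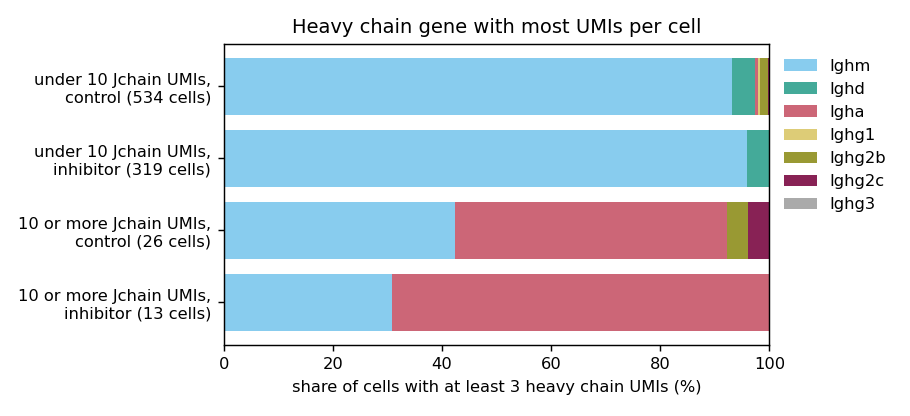
Share of cells (x axis, percent of cells with at least 3 heavy chain UMIs) by the heavy chain constant gene with most UMIs, for cells with fewer than 10 and with at least 10 Jchain UMIs in each library. Ighm fills most of the upper bars, and Igha leads the lower bars with 13 of 26 control and 9 of 13 inhibitor cells. In the inhibitor bar with fewer than 10 Jchain UMIs the 1 switched cell is counted under the single gene with most UMIs.

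Light chain use also differed in level. Lambda constant UMIs exceeded Igkc in 54 of 570 control cells (9.47%, 7.20% to 12.2%) and in 18 of 341 inhibitor cells (5.28%, 3.16% to 8.21%). In sub-cluster 0 the counts were 27 of 243 (11.1%, 7.45% to 15.8%) and 13 of 225 (5.78%, 3.11% to 9.68%). The intervals overlapped in both cases. A single control cell held 86.4% of the 22623 control UMIs of Iglc1, so the level of that gene, 8176 against 895 CPM, says little about the other cells. Without the cells of at least 10 Jchain UMIs, its log2 ratio of inhibitor over control was 0.20.

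For gene levels, UMIs were summed over the B cells of each library and scaled to CPM, and a log2 ratio of inhibitor over control was taken for genes with at least 50 UMIs over both libraries. A gene was counted as higher or lower past a 1.5-fold ratio. Of 5842 genes, 394 were higher (6.74%) and 260 lower (4.45%) in inhibitor B cells, and the median log2 ratio over all of them was 0.11. With the cells of at least 10 Jchain UMIs left out, a choice made after seeing the data, 208 of 5386 genes were higher (3.86%), 274 were lower (5.09%) and the median was 0.01. Immunoglobulin transcripts made up 17.2% of control and 11.5% of inhibitor member UMIs with those cells and 1.87% and 2.20% without them. Scaling all members by the median of ratios gave 204 higher and 355 lower genes, totals without mitochondrial, ribosomal, immunoglobulin and hepatocyte genes gave 215 and 353, and the mean of per-cell CPM gave 282 and 400, so that the direction of the majority depended on the scale. In sub-cluster 0 alone, 108 of 2904 genes were higher (3.72%) and 122 lower (4.2%). The shares of genes higher and lower were 5.04% and 6.31% in sub-cluster 1, 6.03% and 12.1% in sub-cluster 2, and 52% and 7.76% in the plasma cell-like sub-cluster 4. Both values, for all members and without the secreting cells, are therefore given below where they differ. Counts of list genes below are to be read beside these shares over all tested genes. Small list counts can lie near those shares and are then no result about the list.

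Antigen receptor signalling differed little. Of 23 tested genes of the receptor and its coreceptors, 0 were past 1.5-fold in either direction, and their median log2 ratio was 0.08, or -0.05 without secreting cells. The kinase genes Syk (218 and 231 CPM), Lyn (139 and 156 CPM) and Btk (62.9 and 65.0 CPM) had intervals that included no difference, as did the adaptor gene Blnk (158 and 167 CPM). Among 10 tested inhibitory receptors and phosphatases, Pirb was higher (log2 ratio 0.68, 0.02 to 1.34) and Fcrl5 lower (21.0 against 8.51 CPM, log2 ratio -1.30, -2.38 to -0.36). The list's median was 0.13, and of all tested genes 6.74% were higher and 4.45% lower. With free RNA subtracted by a rough estimate, described at the end, Pirb stood at -2.65. Siglecg, an inhibitory lectin that restrains receptor signalling, was at 204 and 291 CPM (log2 ratio 0.51) without passing 1.5-fold.

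Of 24 tested B lineage transcription factors, 1 was higher and 2 were lower, beside 6.74% and 4.45% of all tested genes. The list's median was 0.14, or 0.03 over the 23 tested without secreting cells. Id3, which holds E proteins in check, had 167 UMIs in 108 control cells and 41 UMIs in 34 inhibitor cells. This amounted to 60.4 against 31.7 CPM, a log2 ratio of -0.93 (-1.46 to -0.43). It was -0.98 without secreting cells and -0.80 in sub-cluster 0. Gated T cells showed a log2 ratio of -1.05 for Id3, so the lower level was not found in B cells alone, while it was 0.42 in plasmacytoid and 0.37 in type 2 dendritic cells. Without the negative gates the ratio turned to 0.28. Spib, an Ets factor needed for receptor responses, had 112 against 74.3 CPM (log2 ratio -0.60, -0.94 to -0.26), a UMI in 35.8% and 23.5% of members, and the same ratio of -0.60 in sub-cluster 0. Plasmacytoid dendritic cells had a log2 ratio of -0.49 for Spib. Tcf3, which encodes the E protein E2A that Id3 binds, had 52.4 and 80.5 CPM (log2 ratio 0.62, interval 0.24 to 0.99) and stood at a log2 ratio of 0.45 without secreting cells, below 1.5-fold. Pax5, the factor that keeps B cell identity, was at 133 and 141 CPM, and its interval included no difference.

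**Figure D3:**
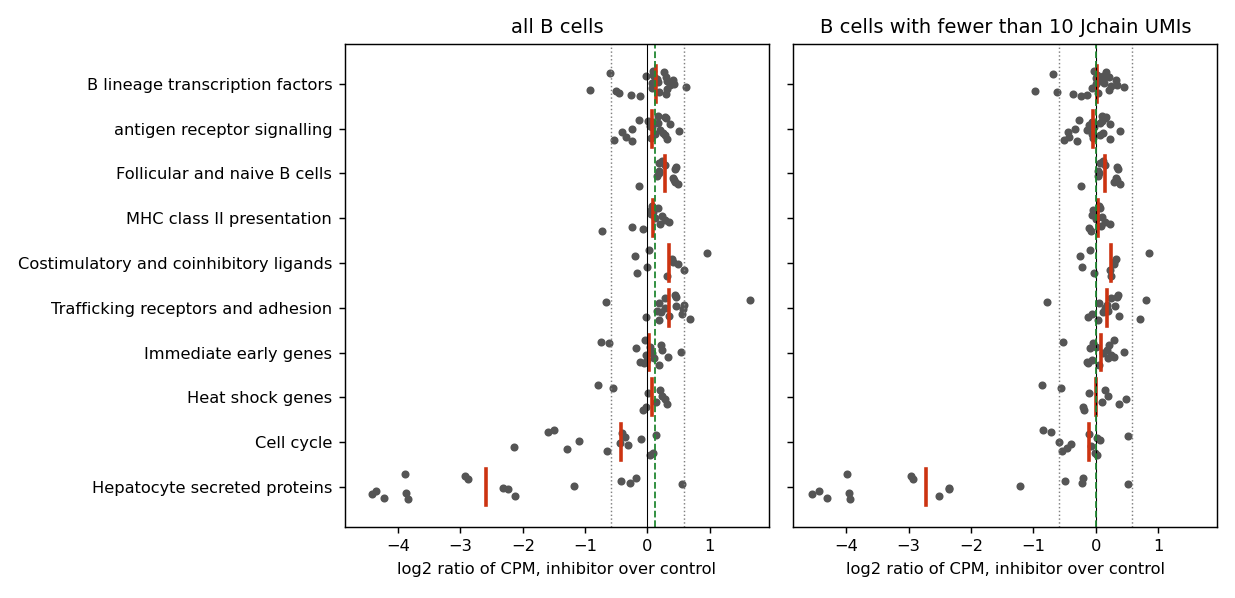
Each dot is 1 tested gene with UMIs in both libraries at its log2 ratio of CPM (x axis, inhibitor over control), grouped by list (y axis), for all B cells (left) and for those with fewer than 10 Jchain UMIs (right); red bars are list medians, the dashed green line the median of all tested genes and dotted lines 1.5-fold. The antigen receptor list stays within 1.5-fold in both panels, while the hepatocyte list has medians of -2.60 and -2.72.

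No gene of the follicular list passed 1.5-fold. All 13 were tested and 0 passed 1.5-fold, with a median of 0.28, or 0.15 without secreting cells and 0.09 in sub-cluster 0. Ccr7, the receptor that guides cells to T cell zones, was at 327 and 450 CPM (log2 ratio 0.46, interval 0.31 to 0.61) over all members but had a log2 ratio of 0.10 in sub-cluster 0. Fcer2a stood at 192 and 227 CPM. Of 17 tested trafficking and adhesion genes, 2 were higher and 1 lower, beside 6.74% and 4.45% of all tested genes. The list's median was 0.34 over all members and 0.19 without secreting cells. Cd44, an adhesion receptor raised on activated lymphocytes, had 55.7 and 89.8 CPM (log2 ratio 0.69, 0.33 to 1.05). It stood at 0.71 without secreting cells, but at -0.15 once free RNA was subtracted by the same rough estimate. Ccr6, the receptor for the chemokine CCL20, had a UMI in 110 control and 40 inhibitor cells, at 61.1 and 38.7 CPM (log2 ratio -0.66, interval -1.14 to -0.20), and -0.86 in sub-cluster 0. T cells showed a lower Ccr6 level as well (log2 ratio -3.83, -4.58 to -3.15). Cxcr3, a receptor for interferon-induced chemokines, rested on few cells, with 37 UMIs in 25 control and 54 UMIs in 18 inhibitor cells. Its log2 ratio of 1.64 was 0.81 without the secreting cells.

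Among costimulatory genes Cd86 stood out in level. Of 10 tested, 2 were higher and 0 lower, with a median log2 ratio of 0.35 over all members and 0.24 without secreting cells, beside 0.11 and 0.01 over all tested genes. Cd86, a ligand of CD28 on T cells, had 152 UMIs in 119 of 570 control cells and 137 UMIs in 100 of 341 inhibitor cells. Its level was 54.9 against 106 CPM, a log2 ratio of 0.95 (0.60 to 1.29). The ratio was 0.85 without secreting cells and 0.70 (0.17 to 1.24) in sub-cluster 0, no cell held over 3.95% of its UMIs in either library, and the 14 processing alternatives gave 0.76 to 1.02. After each cell was thinned to 1000 UMIs, a Cd86 UMI was found in 5.69% of control and 10.6% of inhibitor B cells, against 2.23% and 1.92% of T cells. In T cells its level was lower in the inhibitor library (log2 ratio -0.66, -0.97 to -0.35). C1q macrophages, the richest gated source of Cd86, held 157 and 269 CPM, and monocytes, at 65.9 and 97.5 CPM, were more numerous in the inhibitor library. The part of free RNA in the Cd86 level of B cells was not tested beyond the T cell values and the rough subtraction among the alternatives. Cd83 (207 and 272 CPM, log2 ratio 0.39) and Cd69 (289 and 382 CPM, log2 ratio 0.40), early activation markers, were higher by less than 1.5-fold. Cd48, a ligand of 2B4, passed 1.5-fold over all members (log2 ratio 0.59) and not without secreting cells (0.23). Icosl stood at 43.4 and 37.9 CPM with an interval that included no difference.

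**Figure D4:**
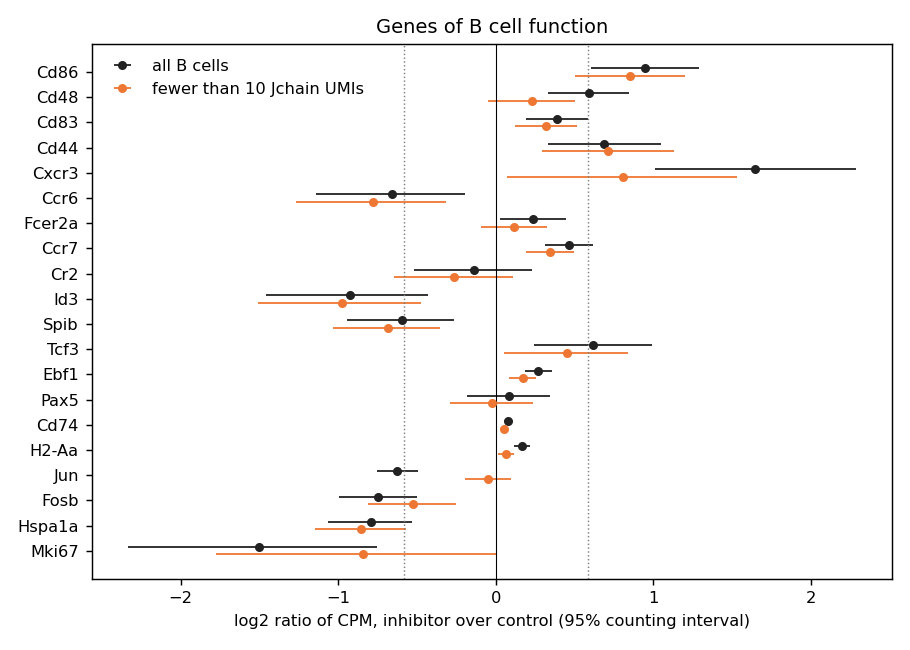
Log2 ratios of CPM (x axis, inhibitor over control) for 20 genes (y axis), as points with 95% counting intervals, over all B cells (black) and over those with fewer than 10 Jchain UMIs (orange); dotted lines mark 1.5-fold. Cd86, Cd44, Id3, Spib and Ccr6 stay beyond 1.5-fold in both sets, whereas Jun moves from -0.62 to -0.05.

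Antigen presentation was close between the libraries. Of 13 tested MHC class II genes, 0 were higher and 1 lower, with a median of 0.09, or 0.03 without secreting cells. Cd74, the invariant chain, was found in every member, with levels of 14118 and 14911 CPM. H2-Aa, a class II alpha chain, was at 3390 and 3806 CPM, and Ciita, the master regulator of class II genes, at 134 and 153 CPM. The lower gene was Rfx5, with 39 and 11 UMIs, whose interval included no difference. Of 10 tested MHC class I genes, 0 passed 1.5-fold and the median was -0.06. Survival genes were also near equal in count. None of 14 tested genes around the cytokines BAFF and APRIL was past 1.5-fold (median 0.07), and Tnfrsf13c, the BAFF receptor, stood at 124 and 125 CPM.

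Among 7 tested cytokine genes 3 were higher and 0 lower, yet each rested on few cells. Ccl22 had 1 UMI in the control and 146 in the inhibitor library, of which 1 cell held 99.3%. Ccl3 and Ccl4, chemokines for myeloid and T cells, had 13 against 40 and 36 against 91 UMIs, and 1 inhibitor cell held 45% and 50.5% of them. Ltb, which encodes lymphotoxin beta and was found in 503 control and 283 inhibitor cells, stood at 757 and 759 CPM. Il10 had 21 UMIs in 9 control cells and 5 in 3 inhibitor cells, too few to compare. Of 14 tested NF-kB target genes, 3 were higher and 0 lower (median 0.06). Besides Ccl3 and Ccl4 this was Peli1, a ubiquitin ligase of receptor signalling, with 57.1 and 104 CPM in 123 and 103 cells (log2 ratio 0.86, 0.52 to 1.20). Its log2 ratio was 0.76 without secreting cells and 0.04 in T cells. Among 8 tested Toll-like receptor genes, 1 was higher, Myd88, on 31 and 24 UMIs.

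Dissociation-type and stress transcripts did not move as a block. Of 16 tested immediate early genes, 0 were higher and 2 lower over all members (median 0.02), namely Jun (750 against 487 CPM, log2 ratio -0.62) and Fosb (log2 ratio -0.74). Without secreting cells 0 of 16 passed 1.5-fold, whereas within the secreting cells 8 of 12 were lower, beside 8.95% of 1028 tested genes. Jun and Fosb were also lower in T cells (log2 ratios -0.53 and -0.93), plasmacytoid (-0.95 and -1.42) and type 2 dendritic cells (-0.49 and -0.69). Over all B cell members, Fos was at 774 and 752 CPM and Egr1 at 162 and 143 CPM. Of 10 tested heat shock genes, 0 were higher and 1 lower (median 0.07). This was Hspa1a, an inducible Hsp70, at 198 against 115 CPM (log2 ratio -0.79, -1.06 to -0.53), with a UMI in 91 of 570 and 38 of 341 cells. In sub-cluster 0 it was -1.67. The log2 ratio was -0.04 in T cells, -1.41 (-1.92 to -0.93) in plasmacytoid dendritic cells and 0.48 in type 2 dendritic cells.

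Interferon response genes had a median below that of all genes. Of 9 tested type I genes, 2 were higher and 1 lower, with a median of -0.11, and without secreting cells 0 were higher and 1 lower, with a median of -0.22. Ifi27l2a had a log2 ratio of 0.65 over all members and 0.31 without secreting cells. Isg15 (log2 ratio 1.28) had 39.2% of its inhibitor UMIs in 1 cell and stood at -0.21 without secreting cells. Bst2, an antiviral tether, was lower at 120 against 64.2 CPM (log2 ratio -0.90, -1.27 to -0.55) at -1.03 without secreting cells and at 0.0069 without the negative gates. T cells, where the log2 ratio was -1.11, showed a lower Bst2 level as well, and the ratio was -0.20 in plasmacytoid and 0.38 in type 2 dendritic cells. Of 10 tested interferon gamma response genes, 0 were higher and 2 lower, with a median of -0.34, or -0.43 over 9 genes without secreting cells. These were Gbp4 (42 and 9 UMIs) and Cxcl10 (57 UMIs in 6 cells and 5 UMIs in 2 cells).

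Cycling cells were rare and fewer transcripts of division were found in the inhibitor library. Of 14 tested cell cycle genes, 0 were higher and 6 lower, with a median log2 ratio of -0.43. Mki67 had 103 UMIs in 18 of 570 control cells (3.16%) and 17 UMIs in 8 of 341 inhibitor cells (2.35%), so the shares of cells lay close. Top2a, a topoisomerase of dividing cells, had 130 UMIs in 17 cells and 20 UMIs in 8 cells. Few large cells carried these UMIs, and without secreting cells 3 of 13 were lower and the median was -0.10. The cells left out there include control cells with 20, 13 and 12 Mki67 UMIs, the last 2 being the Ms4a1-bearing cells above. Of 11 germinal centre genes, 5 were tested over all members and 3 were lower, Mki67, Mef2b and Basp1. Without secreting cells only 2 were tested and Mki67 alone was lower.

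Among genes of B1, memory and related cells, Zcwpw1 had the lowest ratio. Zcwpw1, a histone reader known mainly from meiosis that was placed on the B1 list, had 135 UMIs in 28 control cells and 6 UMIs in 5 inhibitor cells. This was 48.8 against 4.64 CPM, a log2 ratio of -3.39 (-4.87 to -2.23), and the processing alternatives gave -3.77 to -2.69. In T cells its log2 ratio was 0.34. It also leads sub-cluster 2, and 1 control cell held 26.7% of its UMIs. Bhlhe41, a regulator of B1 cells, was lower at 40.5 against 25.5 CPM (log2 ratio -0.66), and -1.09 without secreting cells. In total 1 of 7 tested B1 genes was higher and 2 were lower (median 0.06), and 3 of 6 were lower without secreting cells (median -0.40), S100a6 being the third. The memory list had 1 gene higher (Cd44) and 1 lower (Ccr6) of 7 tested, beside 6.74% and 4.45% of all tested genes. Its median was 0.01. The age-associated list had Cxcr3 and Nkg7 higher and Fcrl5 lower of 6 tested, with a median of 0.36, and the same genes of 5 tested without secreting cells, with a median of 0.04. Nkg7, also an NK cell marker, had 42 UMIs in 6 inhibitor cells, and its log2 ratio of 2.24 was 0.25 without sub-clusters 3 and 5. None of 7 tested marginal zone genes passed 1.5-fold (median 0.06). Precursor B cell genes were nearly absent: 0 of 8 reached 50 UMIs, 3 had no UMI, and the list summed to 9.40 and 4.64 CPM.

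Fabp5, the gene of the inhibited protein, was scarce in B cells. It had 39 UMIs in 20 control cells and 12 UMIs in 4 inhibitor cells, 14.1 and 9.29 CPM. The log2 ratio of -0.60 (-1.67 to 0.36) does not exclude equal levels, and 8 of the 12 inhibitor UMIs came from 1 cell. C1q macrophages, by contrast, held 635 and 353 CPM. Of 12 tested genes of fatty acid binding and lipid metabolism, 3 were higher and 1 lower (median 0.03). Fabp1 had 750 UMIs in the inhibitor library, 95.6% of them in 1 cell, and Plin2, a lipid droplet protein, 65.8% in 1 cell. Cpt1a, which admits fatty acids to mitochondria, had 36 UMIs in 34 control cells and 33 UMIs in 28 inhibitor cells (log2 ratio 0.97, 0.25 to 1.70), and 0.60 without secreting cells. Scd1, a fatty acid desaturase, stood at 161 and 163 CPM. Of 5 tested cholesterol synthesis genes, 1 was higher, Fdps, at -0.18 without secreting cells.

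Transcripts of hepatocytes were lower in inhibitor B cells and in inhibitor T cells alike. Of 16 tested hepatocyte secreted genes, 0 were higher and 12 lower, with a median log2 ratio of -2.60. Alb, which encodes albumin, had a UMI in 74.6% of control and 9.68% of inhibitor B cells, at 598 against 40.2 CPM (log2 ratio -3.89, -4.32 to -3.50). T cells carried an Alb UMI in 74.6% and 8.75%, nearly the same shares, and had a log2 ratio of -4.90. Gated hepatocytes numbered 49 in the control and 3 in the inhibitor library. After the rough subtraction of free RNA the list's median turned to 0.71. For other lineages, T cell markers summed to 36.5 and 32.5 CPM with 3 of 12 at 0 UMIs. Those 3 are Cd3d, Cd3e and Cd3g, which the member rule sets to 0. NK cell markers summed to 30.4 and 158 CPM with 0 of 9 at 0 UMIs. Neutrophil markers summed to 378 and 152 CPM, and monocyte and macrophage markers to 1099 and 669 CPM with the 4 gated genes at 0 UMIs. For S100a8, 1 control cell held 47.1% of the UMIs, and 1 inhibitor cell 71.4%. Its log2 ratio was -1.47 over all members and 2.10 without secreting cells. Haemoglobin and platelet genes summed to 9072 and 7274 CPM. The part of these transcripts in the results above was not tested, except that leaving out sub-clusters 3 and 5 gave 381 higher and 245 lower genes.

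**Figure D5:**
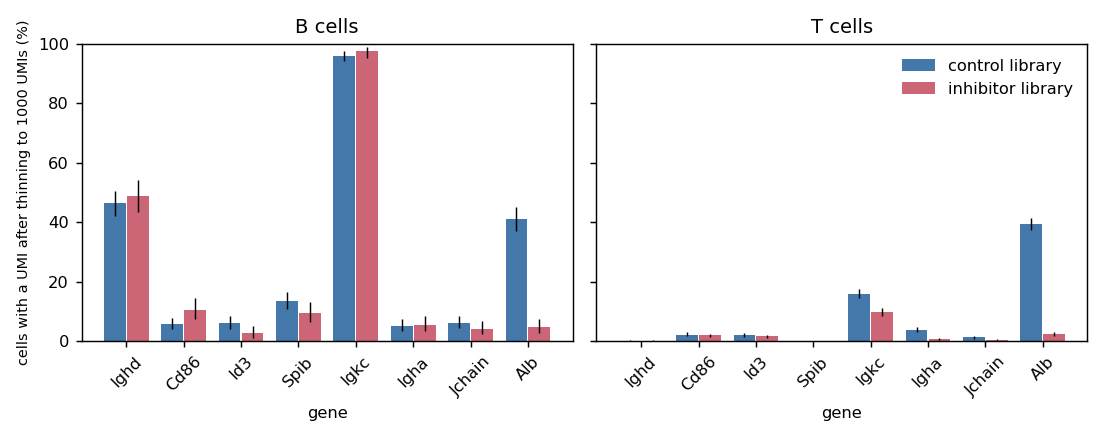
Share of cells with a UMI of each gene after thinning every cell to 1000 UMIs (y axis, percent), in B cells (left) and gated T cells (right) of both libraries, with exact 95% binomial intervals. Alb is found in 41.1% of control B cells and 39.5% of control T cells and in 4.71% and 2.38% in the inhibitor library, whereas Ighd is found in 46.4% and 48.8% of B cells and in 0.0466% and 0.128% of T cells. Cd86 is found in few cells of either class.

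Genes were also ranked by the bound of the interval nearest to no difference, among those with a UMI in at least 10% of the members of the library where they were higher and a CPM there of at least 10% of that in every other gated class. The 10 higher genes were Glul, Oat, Pycard, Cyb5a, Phyh, Crip1, Hsp90b1, Manf, Hspa5 and Calr. The first of them were carried by single cells: 1 inhibitor cell held 66.7% of the Glul, 65.4% of the Oat, 65.6% of the Cyb5a and 58.0% of the Phyh UMIs, which are genes that hepatocytes express strongly. Hsp90b1, Manf, Hspa5 and Calr are chaperones of the endoplasmic reticulum that secreting cells need. Hspa5 stood at 301 and 536 CPM over all members (log2 ratio 0.83) and at a log2 ratio of 0.16 without secreting cells, and Hsp90b1 moved from 1.06 to -0.18. Manf went from 0.89 to -0.10, Calr from 0.81 to 0.26 and Crip1 from 1.11 to -0.49. Pycard, an inflammasome adaptor, was at 102 and 323 CPM (log2 ratio 1.67) over all members and had a log2 ratio of 0.01 without secreting cells. Within the secreting cells Hspa5 was 1.62 higher on the log2 scale. In the inhibitor library 1 cell held 38.1% of the Hspa5 UMIs of all members. The 10 lower genes were Alb, Mup20, Fgb, Ahsg, Fgg, Apoa1, Hpx, Kng1, Clu and Iglc1, of which all but Iglc1 are secreted by hepatocytes.

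A further ranking, made after seeing these values, left out the secreting cells, the hepatocyte list and genes with over 10% of a library's UMIs in 1 cell, unless no cell held more than 1 UMI. Cd86 then ranked first among higher genes. It was followed by Clock, a circadian transcription factor, at 17.0 against 38.2 CPM (log2 ratio 1.17, 0.48 to 1.87), which had a log2 ratio of 0.16 in T cells. Arl5c (59.8 against 108 CPM, log2 ratio 0.85) stood at 0.43 in T cells, and Sun2, a nuclear envelope protein (48.1 against 87.97 CPM, log2 ratio 0.87), at 0.14. Peli1 ranked next, and Stap1, an adaptor of the B cell antigen receptor, was at 298 against 423 CPM (log2 ratio 0.50, 0.33 to 0.68). Stap1 was also higher in type 2 dendritic cells (log2 ratio 0.61, 0.35 to 0.89), at 0.41 in plasmacytoid dendritic cells and at -0.08 in T cells. In type 2 dendritic cells Clock stood at 0.21 and Arl5c at -0.34. Whether these ratios differ between cell types was not tested, as each rests on 1 library per group.

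Several of the lower genes in that ranking were lower in T cells too. Lars2 stood at 172 against 54.5 CPM in B cells without the secreting ones (log2 ratio -1.65, -2.08 to -1.25), with a UMI in 43.2% and 15.9% of them, and at -1.64 in T cells. AY036118 had a log2 ratio of -0.81 in these B cells and -0.78 in T cells, and Hist1h1e, a linker histone, -0.90 and -0.70. The complement gene C3, which hepatocytes secrete, was at -2.10 and -2.91. Other lower genes had ratios nearer 0 in T cells, a difference that was not tested. Tnks2, a tankyrase, was at 46.6 against 20.1 CPM (log2 ratio -1.22, -1.97 to -0.52) with -0.24 in T cells, Snrnp25, a spliceosome protein, at 86.0 against 43.99 CPM (log2 ratio -0.97) with -0.09 in T cells but -1.09 (-2.13 to -0.17) in plasmacytoid dendritic cells, and Xiap, an inhibitor of caspases, at 57.3 against 29.6 CPM (log2 ratio -0.95) with -0.36 in T cells. Igha, at 54.9 against 19.1 CPM in these B cells (log2 ratio -1.52), had a log2 ratio of -2.56 in T cells.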

How the data were processed

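Both libraries were analysed, 1 control and 1 inhibitor. The values deposited by the authors are raw UMI counts, whole numbers for 31053 genes in each barcode. Cell Ranger 5.0.1 is named per the file headers. Cell Ranger, R 3.0 and Seurat 3 were used with build mm9, per the submitters' processing notes. Counts of member cells were summed per library and scaled to CPM. Ratios carry exact conditional binomial intervals, shares exact Clopper-Pearson intervals. Genes needed 50 UMIs over both libraries. A count of 0 was set to 3 UMIs for a bound. No test was run, as cells are not replicates. Members were clustered with scanpy 1.11.5 (Leiden, resolution 0.5, 20 principal components). T cells were barcodes with at least 3 Cd3 UMIs. Doublets were addressed only through the negative gates, which hold no gene of the NK cell, hepatocyte or erythroid lists. A score against simulated doublets was an alternative and marked 10 control and 4 inhibitor members. Members and gene lists were chosen with earlier results of these data known. Named genes were list members past 1.5-fold with an interval excluding no difference, the 2 list members with most UMIs, and the 10 highest and lowest genes by interval bound with a UMI in 10% of members and at least 10% of the CPM of every other gated class of 50 cells or more; others named were chosen after their values were seen. The interval script was checked on simulated data. Some genes are not reported here.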

Additional observations from a re-analysis of the deposited data

How the results depend on the processing

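Limits: 1 library per group, unknown numbers of mice, and a few large secreting cells that shift every CPM. The share of B cells in the inhibitor library, as a log2 ratio, was -1.21 and became -1.005 without sub-clusters 3 and 5. The 394 higher genes became 1115 without negative gates, 208 without secreting cells, 204 under median-of-ratios scaling and 215 when scaled to totals without mitochondrial, ribosomal, immunoglobulin and hepatocyte genes. The 260 lower genes became 400 with the mean of per-cell CPM. A minimum of 20 UMIs gave 836 higher and 662 lower genes, 100 UMIs gave 161 and 91, and 1 UMI in each library gave 2046 and 1348. Without secreting cells the switched shares were 2.62% and 0.313%. Resolution 1.0 gave 11 sub-clusters in place of 6. Of 174 alternative values for these results and the 5 main list medians, 159 stayed within their interval or 1.5-fold range. Of the alternative values for single genes and the other lists, 1560 stayed so, 306 moved and 34 reversed.

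Directions turned for single genes. Without secreting cells the log2 ratios were -0.10 for Manf, -0.18 for Hsp90b1, -0.18 for Fdps, -0.21 for Isg15, -0.49 for Crip1, -1.61 for Derl3, 0.051 for Mef2b, 0.20 for Iglc1, 0.44 for Basp1, 1.91 for Ly6c2, 2.07 for S100a9 and 2.10 for S100a8. Without doublet-scored barcodes Basp1 stood at 0.0056, Rrm2 at 0.65 and Mef2b at 0.72. With the mean of per-cell CPM the log2 ratio of Mef2b was 0.0251, with S100a8 at 0.72, S100a9 at 0.84 and Basp1 at 0.94. Without negative gates Bst2 was at 0.0069, Id3 at 0.28 and Ly6c2 at 0.49. Plin2 was at -0.068 without sub-clusters 3 and 5 and at -0.16 without each gene's largest cell. After free RNA was subtracted (9.26% and 10.6% of UMIs by estimate), Cd44 was at -0.15, Pirb at -2.65, Serpina1a at 0.28, Hpx at 1.18, Apoa4 at 1.22, Ahsg at 1.63, Serpina1b at 3.30, Apoa1 at 3.79, Ttr at 3.82 and the hepatocyte list's median at 0.71. The profile subtracted was summed over all deposited barcodes, cells included. Its fraction came from hepatocyte, neutrophil and C1q genes, although the member rule removes cells with C1q UMIs. The estimate was higher in the inhibitor library, although hepatocyte transcripts stood lower in its B cells, so these values are a rough guide only. The cause of these turns was not tested. The alternatives without secreting cells, without sub-clusters 3 and 5 and without a gene's largest cell were chosen after seeing the data. No paired analysis was possible because each group has 1 library, and no replicate could be left out.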
